A study of Rattus norvegicus with 63 samples.

Results

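The genes described here are those of mitochondrial and peroxisomal fatty acid oxidation, measured in rat liver after dosing with 15 compounds. A list of 44 genes by name made up the set. The rule uses no measured value, but the list was drawn up with earlier results of these data known. Of these, 43 had a probe set annotated with their symbol alone, out of 10411 such genes on the array. Acaa1a, a peroxisomal thiolase, was the exception, because its probe set is shared with Acaa1b. Each gene is represented by its brightest probe set.

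RNA from liver sections of male Wistar Hanover rats aged 8 to 10 weeks was hybridised to 63 Affymetrix arrays, with 3 arrays (1 per animal) for each of the 15 compounds and for each of 6 vehicle control sets. The question of the study was whether expression after a few days of dosing tells classes of liver carcinogens apart. The 3 animals of a group were picked out of 5 after histopathology, so they are separate animals but no random draw. Doses were given daily by gastric gavage. For 14 days the animals received acetamide (AA) at 3000 mg per kg, cefuroxime (CFX) at 250, cyproterone acetate (CPA) at 100, dehydroepiandrosterone (DHEA) at 600, ethionine (ETH) at 200, methylcarbamate (Mcarb) at 400 or nifedipine (Nif) at 3 mg per kg. Phenobarbital sodium (PB) was also given for 14 days, at a dose not given in the labels. For 7 days they received C.I Direct Black (CIDB) at 146, dimethylnitrosamine (DMN) at 4, methapyrilene HCl (MPy) at 60 or thioacetamide (TAA, spelled Thioacetamid in the labels) at 19.2 mg per kg. For 3 days they received diethylstilbestrol (DES) at 10, piperonylbutoxide (PBO) at 1200 or Wy-14643 (Wy) at 60 mg per kg.

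Control sets 1, 2, 5 and 6 received methylcellulose for 14 days, set 3 corn oil for 7 days and set 4 corn oil for 14 days. Set 1 was the control of Wy, DHEA, TAA, MPy, AA and Mcarb, set 2 that of Nif and CFX, set 3 that of DMN and CIDB, set 4 that of CPA, set 5 that of PBO, DES and ETH, and set 6 that of PB. The labels thus give 14-day controls for the compounds dosed for 3 days and for MPy and TAA, whereas the methods describe time-matched controls. Whether those contrasts also hold a difference in days is therefore uncertain. The methods also name carboxymethyl cellulose as a vehicle where the labels give methylcellulose, and where vehicles differed, vehicle and compound cannot be told apart.

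Fatty acids enter the cell through carriers such as CD36, are activated to CoA esters and are carried into mitochondria as carnitine esters, where repeated rounds of dehydrogenation, hydration, a second dehydrogenation and thiolysis shorten them. Peroxisomes run a parallel pathway for very long-chain, branched and dicarboxylic acids. In rodent liver many of these genes are targets of the nuclear receptor PPARalpha, which fatty acids and fibrate-like drugs activate. Wy is a synthetic PPARalpha agonist, and DHEA, an adrenal steroid, is known as a peroxisome proliferator in rats.

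All values are log2 intensities, and a change is the mean of 3 treated arrays minus the mean of the 3 arrays of the own control set, ± SE. A gene was called (rose or fell) at an adjusted p under 0.05 in a linear model across all probe sets. The hepatocyte marker Alb, the plasma protein albumin, was brighter than 99.99% of probe sets by its mean. The means of the adipocyte markers over all arrays ran from 5.45 (Plin1) to 7.26 (Plin4). Those of the muscle markers ran from 4.79 (Acta1) to 6.91 (Des), with Mb at 5.25 and Ckm at 6.21. A single array, replicate 3 of methylcellulose set 6, stood apart, with 10.38 for Acta1, 9.61 for Ckm and 7.72 for Mb. Its level entered the comparison of PB, the class comparisons through PB and the pairs with control set 6. RNA of bulk tissue cannot tell fewer cells of a type from less RNA per cell.

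Wy and DHEA moved this pathway most widely. In Wy, 30 of the 43 genes rose and 0 fell, against 6.5% of all probe sets called up and 6.45% called down. In DHEA 31 rose and 1, the racemase Amacr, fell, against 9.3% of all probe sets up and 8.37% down. The median change of the 43 genes was 0.83 in Wy and 0.73 in DHEA, where the median over all probe sets was -0.00 and 0.01. The same number of genes, 15, rose more than 2.5-fold in each.

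PBO came next, with 14 genes up and 5 down (7.03% and 7.46% of all probe sets) and a median of 0.11. The other compounds had medians between -0.16 and 0.04. CIDB raised 7 and lowered 6 (8.14% and 5.75%), ETH raised 4 and lowered 10 (11.7% and 11.8%), and DES raised 3 and lowered 9 (6.77% and 8.72%). Genes that fell prevailed in CPA, with 0 up and 9 down (3.11% and 4.73%), in TAA, also 0 and 9 (3.15% and 3.25%), and in MPy, with 1 and 7 (3.28% and 3.04%). Nif gave 3 up and 3 down (3.78% and 4.68%) and AA 1 and 1 (2.74% and 1.92%). None of the 43 was called in Mcarb (0.782% of probe sets up, 0.284% down), PB (0.964% and 0.384%), DMN (2.31% and 0.92%) or CFX (0.0063% and 0%). Other settings did call some of the 43 there, with array weights 12 in DMN and 1 in Mcarb, and with controls pooled by vehicle 6 in PB, 2 in Mcarb and 1 in DMN. Calls over all probe sets were not counted under those settings, so a general rise in calls cannot be told apart from one in these genes.

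**Figure D1:**
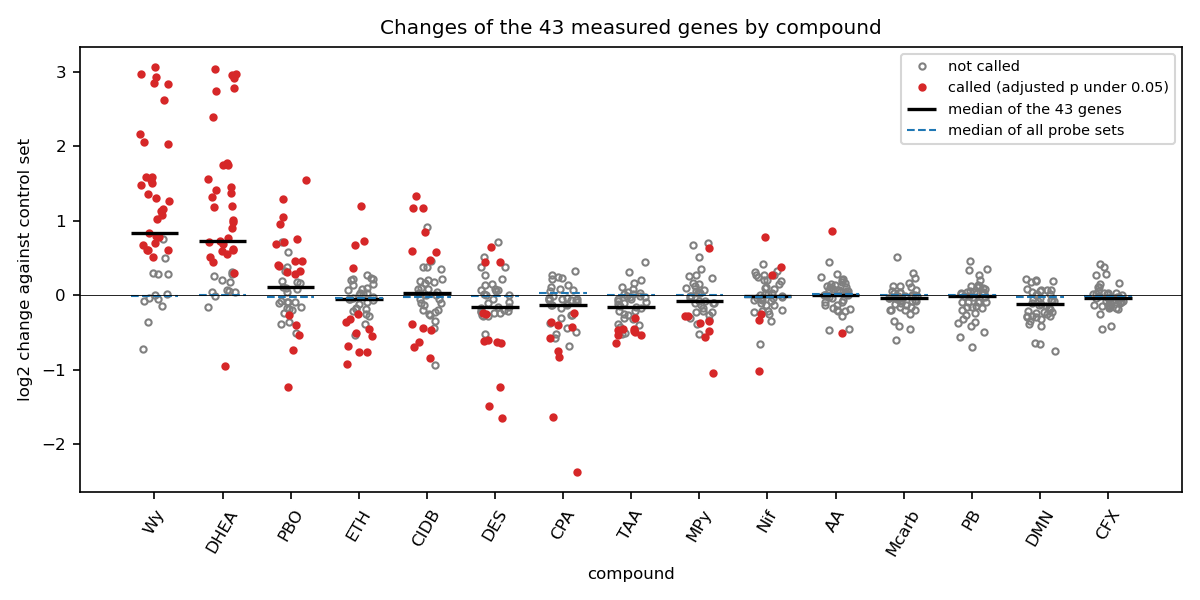
Change of each of the 43 genes (points) by compound (horizontal axis), as log2 change against the own control set (vertical axis, 3 arrays against 3); filled points were called, the black line is the median of the 43 genes and the dashed line the median of all probe sets. The medians of Wy (0.83) and DHEA (0.73) lie far from the dashed line, and those of the other compounds run from -0.16 to 0.11.

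**Figure D2:**
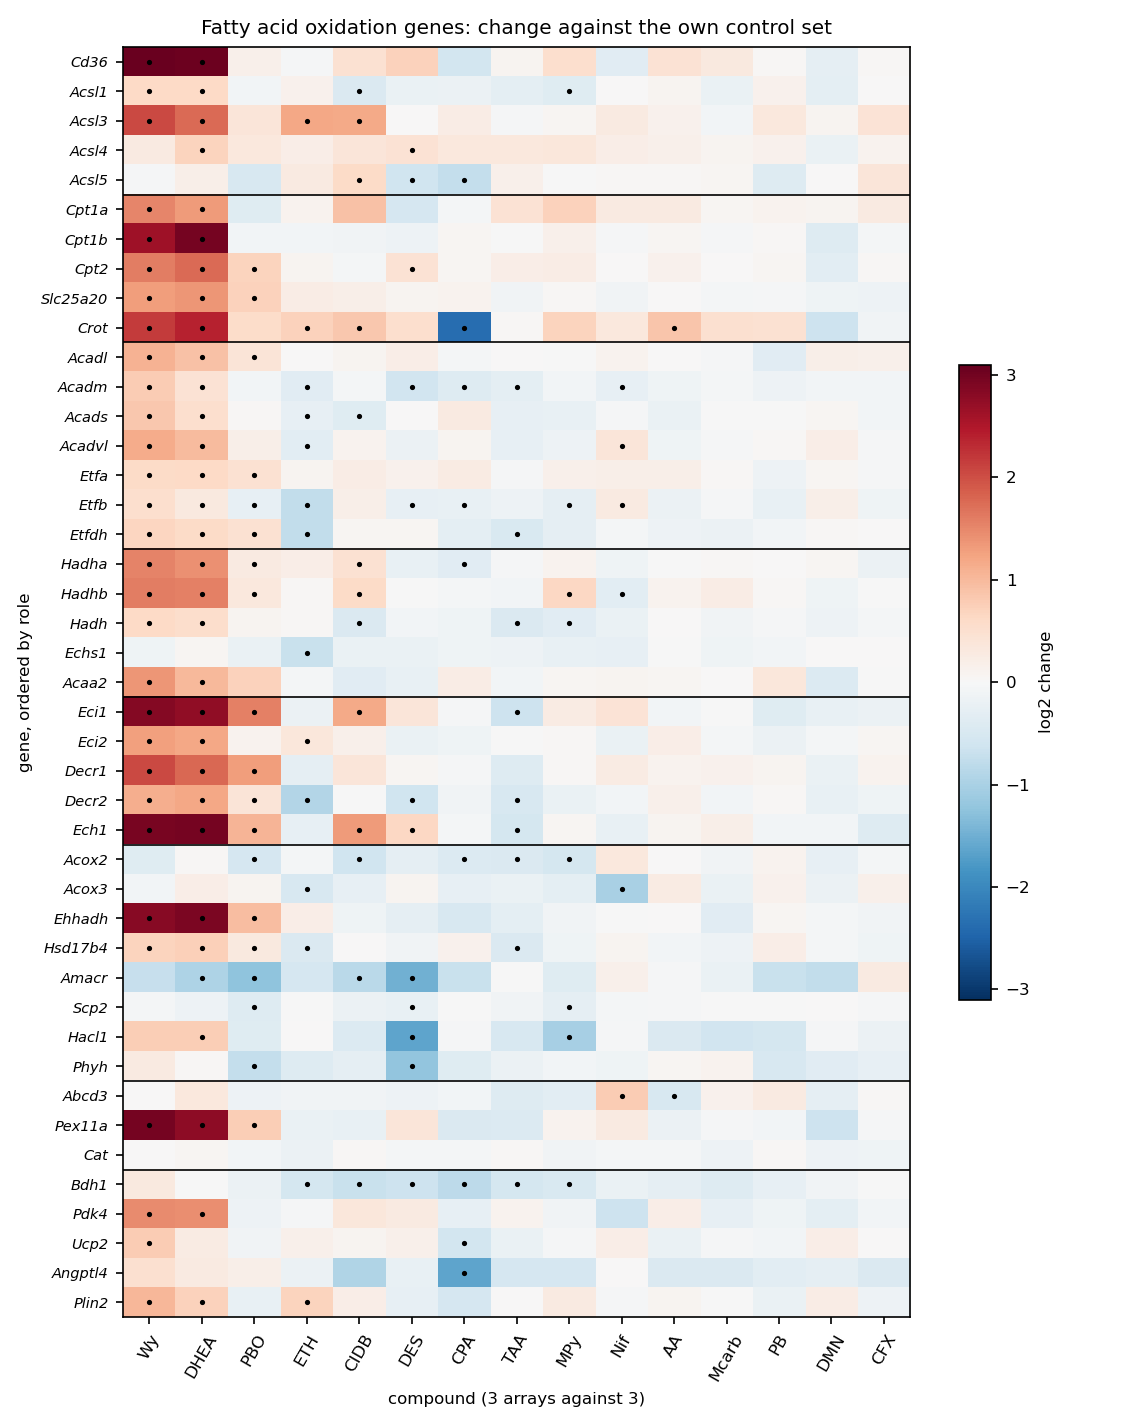
Log2 change (colour) of the 43 genes (rows, grouped by role with lines between the roles) in the 15 compounds (columns), with a dot where a gene was called. The columns of Wy and DHEA are mostly red, PBO is red for the enzymes of unsaturated fatty acids, and Crot in CPA is the deepest blue cell.

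Promoter windows from RefSeq (build GRCr8, 250 bases before to 50 after each start site) were at hand for 38 of the 43 genes. Acaa2, Acadl, Cpt1b, Decr1 and Ech1 had none. PPARalpha binds with a partner to a direct repeat of AGGTCA spaced by a single base. The repeat AGGTCANAGGTCA, searched on both strands, was in 0 of the 38 windows and in 0.054% of all 33469 windows. The looser AGGNCANAGGNCA, which includes every match of the first, was in 0 of 38 and in 0.415% of all. With shares this low over all windows, 0 of 38 says little about these genes. The single AGGTCA was in 8 of 38 (21.1%), against 16.2% of all. Those 8 were Acadvl, which held 2 copies, and Amacr, Cat, Echs1, Eci1, Eci2, Hadhb and Hsd17b4.

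The windows printed are those of Eci1 and Acadvl, which rose and hold the single site, of Cat, which holds it and was called in no compound, of Ehhadh, which rose and lacks it, and of the neighbours Hadha and Hadhb. Capitals mark AGGTCA, or TGACCT where it lies on the other strand. Each is written 5′ to 3′ on the gene's own strand.
Eci1 (chr10:13961000-13961299, plus strand): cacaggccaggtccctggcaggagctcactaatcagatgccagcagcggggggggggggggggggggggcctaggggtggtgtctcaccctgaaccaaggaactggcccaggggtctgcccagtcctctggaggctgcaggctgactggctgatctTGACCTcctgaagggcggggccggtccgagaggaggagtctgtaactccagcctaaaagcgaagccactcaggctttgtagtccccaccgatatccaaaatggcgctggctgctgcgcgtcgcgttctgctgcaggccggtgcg
Acadvl (chr10:55236656-55236955, minus strand): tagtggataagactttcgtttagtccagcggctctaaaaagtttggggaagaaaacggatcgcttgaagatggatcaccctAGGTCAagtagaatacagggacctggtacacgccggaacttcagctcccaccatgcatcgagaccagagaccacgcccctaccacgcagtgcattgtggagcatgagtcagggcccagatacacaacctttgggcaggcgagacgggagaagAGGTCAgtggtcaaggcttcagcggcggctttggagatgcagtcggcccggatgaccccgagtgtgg
Cat (chr3:110329477-110329776, minus strand): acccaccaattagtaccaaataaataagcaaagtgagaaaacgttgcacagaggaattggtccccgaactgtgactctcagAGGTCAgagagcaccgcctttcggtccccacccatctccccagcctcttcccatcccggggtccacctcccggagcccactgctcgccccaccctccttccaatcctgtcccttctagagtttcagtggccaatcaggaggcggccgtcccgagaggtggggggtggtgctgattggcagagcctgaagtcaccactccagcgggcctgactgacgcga
Ehhadh (chr11:92746159-92746458, plus strand): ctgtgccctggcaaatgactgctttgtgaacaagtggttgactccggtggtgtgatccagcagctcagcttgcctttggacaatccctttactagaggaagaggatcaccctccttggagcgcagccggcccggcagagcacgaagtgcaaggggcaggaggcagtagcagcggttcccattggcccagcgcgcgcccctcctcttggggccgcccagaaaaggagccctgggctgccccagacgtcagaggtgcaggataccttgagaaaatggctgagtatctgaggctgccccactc
Hadha (chr6:31907551-31907850, plus strand): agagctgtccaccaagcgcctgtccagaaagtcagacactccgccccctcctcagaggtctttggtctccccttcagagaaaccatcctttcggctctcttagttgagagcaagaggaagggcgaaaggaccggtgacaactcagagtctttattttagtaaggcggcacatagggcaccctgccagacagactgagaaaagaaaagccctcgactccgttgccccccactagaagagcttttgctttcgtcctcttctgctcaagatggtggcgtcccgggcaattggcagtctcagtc
Hadhb (chr6:31907451-31907750, minus strand): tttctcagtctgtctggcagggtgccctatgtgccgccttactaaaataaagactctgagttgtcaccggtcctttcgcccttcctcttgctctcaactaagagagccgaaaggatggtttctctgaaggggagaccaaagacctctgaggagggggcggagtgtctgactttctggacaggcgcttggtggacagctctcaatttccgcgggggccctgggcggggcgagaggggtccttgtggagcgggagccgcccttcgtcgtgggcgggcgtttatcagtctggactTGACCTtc
The site of Eci1 lies at -94 to -89 from the start site, those of Acadvl at -169 to -164 and -17 to -12, that of Cat at -169 to -164 and that of Hadhb at 43 to 48. Hadha and Hadhb start 301 bases apart on opposite strands, and their windows share 200 bases. After the second Acadvl site, past 1 base, stands TGGTCA, which differs from AGGTCA in its first letter. The looser pattern keeps that letter fixed, so this repeat was not counted. A match is a run of letters and not a measured binding site.

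Uptake and activation came first in the pathway. Cd36, the fatty acid carrier of the cell surface, was at 6.86, 6.80 and 6.78 on the arrays of control set 1, in replicate order. It reached 8.19, 10.90 and 10.53 in Wy and 9.51, 10.13 and 9.93 in DHEA, so that no treated array overlapped the controls. The change was 3.06 ± 0.30 in Wy (adjusted p = 8.07e-11) and 3.04 ± 0.30 in DHEA (adjusted p = 9.72e-11), the highest of the 43 genes in both. In folds these are 8.33 and 8.23. Replicate 1 of Wy stayed well below the other Wy arrays.

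The long-chain acyl-CoA synthetases, which make the CoA esters, moved by different amounts. Acsl3 rose by 2.06 ± 0.20 in Wy and 1.75 ± 0.20 in DHEA, and Acsl1 by 0.61 ± 0.11 and 0.61 ± 0.11. Acsl4 rose in DHEA by 0.69 ± 0.15, and in Wy its change was 0.28 ± 0.15 (adjusted p = 0.237). Acsl5 was not called in either, with -0.03 ± 0.18 and 0.18 ± 0.18.

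All 5 genes of the carnitine shuttle rose in both compounds. Cpt1b, the form of carnitine palmitoyltransferase 1 known from muscle, was at 7.21, 7.28 and 7.10 in control set 1. It was at 8.11, 10.94 and 10.39 in Wy and at 9.92, 10.02 and 10.51 in DHEA. The changes were 2.62 ± 0.28 (adjusted p = 4.78e-10) and 2.95 ± 0.28 (adjusted p = 1.25e-11). As for Cd36, replicate 1 of Wy was the lowest treated array and still above all controls. The muscle markers were not called in either compound (0 of 8), and their mean level per array was 5.62 to 5.71 in Wy, 5.64 to 5.69 in DHEA and 5.64 to 5.70 in control set 1.

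The liver form Cpt1a, which sets the pace of mitochondrial entry, rose by 1.50 ± 0.33 in Wy and 1.32 ± 0.33 in DHEA, from controls that themselves ran from 9.22 to 10.71. Cpt2, which returns the acyl group to CoA inside the mitochondrion, rose by 1.58 ± 0.16 and 1.75 ± 0.16. The carrier Slc25a20 between them rose by 1.30 ± 0.11 and 1.37 ± 0.11. Crot, which makes carnitine esters of the medium-chain acids leaving peroxisomes, rose by 2.17 ± 0.26 and 2.40 ± 0.26.

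The 7 genes of the first mitochondrial step, the acyl-CoA dehydrogenases and the flavoproteins that take up their electrons, all rose in both compounds and by less. Their medians were 0.80 in Wy and 0.60 in DHEA. The very long-chain dehydrogenase Acadvl rose by 1.16 ± 0.11 in Wy and 0.98 ± 0.11 in DHEA, and the long-chain enzyme Acadl by 1.07 ± 0.11 and 0.91 ± 0.11. The medium-chain enzyme Acadm rose by 0.80 ± 0.08 and 0.45 ± 0.08, and the short-chain enzyme Acads by 0.83 ± 0.09 and 0.51 ± 0.09. The electron transfer flavoprotein subunits followed, Etfa with 0.60 ± 0.11 and 0.63 ± 0.11 and Etfb with 0.51 ± 0.07 and 0.30 ± 0.07. Their oxidoreductase Etfdh rose by 0.67 ± 0.12 and 0.60 ± 0.12.

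Hadha and Hadhb, the subunits of the mitochondrial trifunctional protein, moved by nearly equal amounts. In control set 1 Hadha was at 10.97, 10.90 and 11.06 and Hadhb at 10.91, 10.75 and 10.78. Hadha rose by 1.54 ± 0.10 in Wy (adjusted p = 1.02e-16) and 1.42 ± 0.10 in DHEA, and Hadhb by 1.59 ± 0.10 (adjusted p = 8.06e-17) and 1.56 ± 0.10. The pair rose in PBO and CIDB as well, by 0.29 ± 0.10 and 0.47 ± 0.10 for Hadha and by 0.32 ± 0.10 and 0.58 ± 0.10 for Hadhb. In MPy, Nif and CPA only 1 of the pair was called, and the difference between them was not tested. Hadha had 0.10 ± 0.10 in MPy, -0.13 ± 0.10 in Nif and -0.36 ± 0.10 in CPA, and Hadhb 0.64 ± 0.10, -0.33 ± 0.10 and -0.07 ± 0.10.

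Of the other enzymes of the later mitochondrial steps, the thiolase Acaa2 rose by 1.36 ± 0.28 in Wy and 1.00 ± 0.28 in DHEA, and the dehydrogenase Hadh by 0.61 ± 0.08 and 0.55 ± 0.08. The short-chain hydratase Echs1 was not called, with -0.14 ± 0.09 and 0.05 ± 0.09. Its single call was a fall in ETH.

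The 5 auxiliary enzymes that prepare double bonds of unsaturated fatty acids all rose in both compounds, with the highest role medians in each, 2.04 in Wy and 1.77 in DHEA. Ech1, a dienoyl-CoA isomerase, was at 10.33, 10.02 and 10.45 in control set 1, at 12.89, 13.33 and 13.37 in Wy and at 13.19, 13.23 and 13.27 in DHEA. It rose by 2.93 ± 0.16 (adjusted p = 3.2e-19) and 2.96 ± 0.16 (adjusted p = 2.41e-19). The 6 treated arrays lay close together and far above every control.

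The mitochondrial isomerase Eci1 had a similar pattern. It was at 11.41, 11.07 and 11.26 in control set 1, at 13.90, 14.20 and 14.20 in Wy and at 13.94, 14.00 and 14.02 in DHEA. Its changes were 2.85 ± 0.16 (adjusted p = 4.92e-19) and 2.74 ± 0.16 (adjusted p = 2.9e-18). A second probe set for Eci1, with a mean of 6.59 over all arrays against 11.47 for the one used, gave 0.00 ± 0.10 in Wy and -0.12 ± 0.10 in DHEA. The dimmer probe set was thus not called where the one used rose, and with the mean of both the change of Eci1 was 1.43 in Wy and 1.31 in DHEA. The reductases Decr1 (mitochondrial) and Decr2 (peroxisomal) rose by 2.04 ± 0.16 and 1.14 ± 0.11 in Wy and by 1.77 ± 0.16 and 1.20 ± 0.11 in DHEA. Eci2 rose by 1.26 ± 0.11 and 1.19 ± 0.11.

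**Figure D3:**
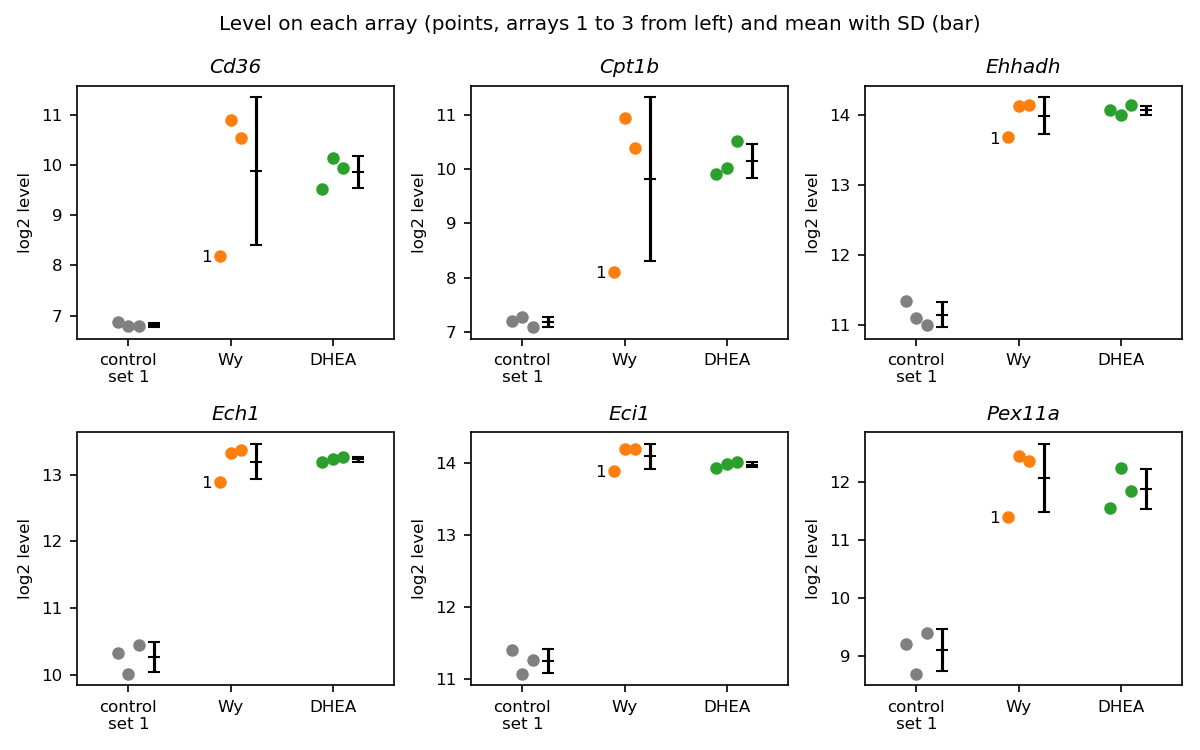
Log2 level (vertical axes, a scale of its own in each panel) on each array of control set 1, Wy and DHEA for the 6 genes with the largest changes, with the mean and SD beside the points; the number 1 marks replicate 1 of Wy. No treated array overlaps the controls, and replicate 1 of Wy is the lowest Wy array in all 6 panels.

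The peroxisomal genes were split. Ehhadh, the bifunctional enzyme of the straight-chain pathway, was at 11.35, 11.10 and 11.01 in control set 1, at 13.68, 14.13 and 14.14 in Wy and at 14.06, 13.99 and 14.13 in DHEA. It rose by 2.83 ± 0.24 (adjusted p = 6.75e-13) and 2.91 ± 0.24 (adjusted p = 2.86e-13). Pex11a, a membrane protein of peroxisome division, was at 9.21, 8.69 and 9.39 in control set 1, at 11.39, 12.45 and 12.36 in Wy and at 11.55, 12.24 and 11.84 in DHEA. It rose by 2.97 ± 0.20 (adjusted p = 2.69e-16) and 2.78 ± 0.20 (adjusted p = 2.19e-15). Its second probe set gave 2.28 ± 0.18 and 2.80 ± 0.18. For both genes the groups lay far apart.

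Hsd17b4, the bifunctional enzyme of the branched-chain pathway, rose less, by 0.70 ± 0.08 in Wy and 0.73 ± 0.08 in DHEA. Hacl1, the lyase of alpha oxidation, had like changes, 0.75 ± 0.28 (adjusted p = 0.0685) and 0.77 ± 0.28 (adjusted p = 0.0481), and only the second was called. The branched-chain genes beside them were not called. Acox2, the oxidase of bile acid precursors, had -0.36 ± 0.13 in Wy and 0.04 ± 0.13 in DHEA, and the oxidase Acox3 -0.07 ± 0.11 and 0.20 ± 0.11. Scp2, a thiolase and lipid carrier, had -0.06 ± 0.07 and -0.16 ± 0.07, and Phyh, the first enzyme of phytanic acid breakdown, 0.29 ± 0.15 and 0.04 ± 0.15.

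Amacr, the racemase that turns branched-chain and bile acid precursors into the form the oxidases accept, moved the other way. Its control arrays stood at 11.63, 11.62 and 12.39, those of Wy at 11.34, 10.83 and 11.33 and those of DHEA at 11.24, 11.08 and 10.48. No treated array overlapped the controls. It fell by 0.95 ± 0.27 in DHEA (adjusted p = 0.0104), and in Wy the change of -0.71 ± 0.27 missed the threshold (adjusted p = 0.0765).

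Cat, catalase, which removes the hydrogen peroxide that the peroxisomal oxidases make, lay close to its controls. It was at 13.13, 13.13 and 12.88 in control set 1, at 12.96, 13.11 and 13.08 in Wy and at 13.14, 13.03 and 13.15 in DHEA. The changes were 0.01 ± 0.11 and 0.06 ± 0.11, and Cat was called in 0 of 15 compounds, with changes from -0.17 to 0.06. Abcd3, a half-transporter of the peroxisomal membrane, had 0.02 ± 0.13 in Wy and 0.32 ± 0.13 in DHEA, neither of them called.

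Among the genes of fuel selection and lipid storage, Pdk4, the kinase that shuts off pyruvate oxidation, rose by 1.47 ± 0.30 in Wy and 1.45 ± 0.30 in DHEA. Its Wy arrays were uneven, at 8.73, 10.88 and 10.66, against 8.70, 8.71 and 8.44 in control set 1. Plin2, a coat protein of lipid droplets, rose by 1.02 ± 0.19 and 0.71 ± 0.19, while a dimmer second probe set (mean 7.27 against 12.17) was not called, with 0.20 ± 0.15 and -0.05 ± 0.15. The uncoupling protein gene Ucp2 rose in Wy by 0.79 ± 0.17 and had 0.26 ± 0.17 in DHEA. Angptl4, a secreted inhibitor of lipoprotein lipase, was not called (0.50 ± 0.40 and 0.29 ± 0.40), and neither was the ketone body dehydrogenase Bdh1 (0.29 ± 0.12 and -0.01 ± 0.12).

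Replicate 1 of Wy stood apart over the whole set. The median difference of its 43 genes from the mean of control set 1 was 0.55, against 1.20 and 1.11 in the other Wy arrays and 0.71, 0.88 and 0.74 in the DHEA arrays. Without it 31 genes rose and 1 fell in Wy, with a median change of 1.07, and 17 instead of 15 rose more than 2.5-fold. The gene that then fell was Acox2 (-0.45 ± 0.15, adjusted p = 0.0326), while Cd36 changed by 3.90 and Cpt1b by 3.47.

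Markers of cell types moved beside these genes in Wy and DHEA. Of all probe sets 6.5% rose and 6.45% fell in Wy, and 9.3% rose and 8.37% fell in DHEA. A single call in a short marker list can hardly be set against such shares. Of 11 measured hepatocyte markers 8 fell in Wy and 6 in DHEA, with mean levels per array of 13.28 to 13.55 and 13.39 to 13.51 against 13.64 to 13.66 in control set 1. Of 11 macrophage markers 6 fell in Wy and 7 in DHEA, with mean levels of 8.64 to 8.85 and 8.60 to 8.95 against 9.30 to 9.52. Of the 5 endothelial markers 3 fell in each, of the 12 stellate and matrix markers 2 fell in Wy and 4 in DHEA, and of the 5 adipocyte markers 1 in each. Of the 6 biliary markers 1 rose in each, of the 8 lymphocyte markers 1 fell in Wy and 0 in DHEA, and 0 of the 4 erythroid markers were called. Their part in the changes of the 43 genes was not tested.

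DHEA and Wy share their 3 control arrays, so their changes are not independent, and their days of dosing differ (14 and 3). Compared directly, array against array, 1 of the 43 genes was higher in DHEA (2.33%, against 4.2% of all probe sets). In Wy 3 were higher (6.98%, against 3.57%). Acox2 was higher in DHEA by 0.41 ± 0.13 (adjusted p = 0.0441), at 11.55, 11.41 and 11.28 against 11.17, 10.78 and 11.07 in Wy. Acadm, Acads and Ucp2 stood lower in DHEA. Acadm differed by -0.35 ± 0.08 (DHEA minus Wy, adjusted p = 0.00552), Acads by -0.32 ± 0.09 (adjusted p = 0.0213) and Ucp2 by -0.52 ± 0.17 (adjusted p = 0.0431). Acadm lay at 13.34, 13.49 and 13.38 in DHEA and at 13.52, 13.95 and 13.78 in Wy, with no overlap, whereas the arrays of Ucp2 overlapped.

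These calls changed with the fit. With the 3 arrays of each compound fitted alone, limma called 0 genes (11 at an unadjusted p under 0.05). With the replicate number as a block it also called 0 (14 at an unadjusted p under 0.05). Of all 15866 probe sets these fits called 501 and 462, so few calls were made at all. In the fit over all arrays 1 gene was called without replicate 1 of DHEA or replicate 2 of Wy, 2 without replicate 2 or 3 of DHEA or replicate 3 of Wy, and 6 without replicate 1 of Wy. In the last of these Cd36 differed by -0.86 ± 0.20 on the log2 scale (DHEA minus Wy, adjusted p = 0.00555), Cpt1b by -0.51 ± 0.13 (adjusted p = 0.0135) and Acsl3 by -0.73 ± 0.18 (adjusted p = 0.0101). With all arrays none of the 3 was called, and Cpt1b lay the other way, at 0.34 ± 0.28 (adjusted p = 0.505), so its sign turned with that array. Acads was then no longer called (adjusted p = 0.0521).

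**Figure D4:**
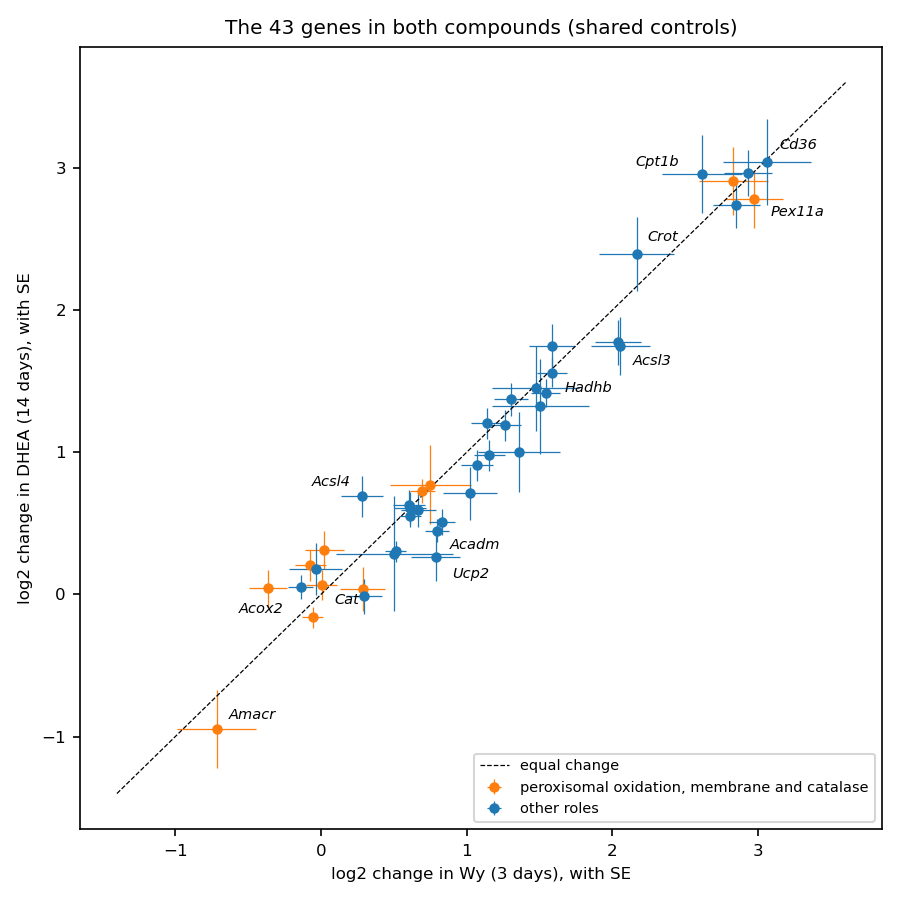
Change of each of the 43 genes in Wy (horizontal axis) and in DHEA (vertical axis), as log2 change ± SE against the same 3 control arrays; orange points are the peroxisomal oxidation, membrane and catalase genes, and the dashed line marks equal change. Since both axes use the same controls the points are placed side by side only; Amacr has the lowest value on both axes (-0.71 and -0.95).

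PBO, the insecticide synergist, raised part of the set. All but 1 of the 5 enzymes of unsaturated fatty acids rose. Eci1 went from 11.27, 11.47 and 11.01 in control set 5 to 13.04, 12.93 and 12.43, a change of 1.55 ± 0.16 (adjusted p = 8.34e-10). Decr1 rose by 1.29 ± 0.16, Ech1 by 1.05 ± 0.16 and Decr2 by 0.40 ± 0.11, whereas Eci2 had 0.11 ± 0.11. None of the Eci1, Decr1 and Ech1 arrays overlapped the controls. Ehhadh rose by 0.96 ± 0.24, Pex11a by 0.75 ± 0.20, Slc25a20 by 0.72 ± 0.11 and Cpt2 by 0.69 ± 0.16.

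The genes with the largest changes in Wy and DHEA were not all among them. Cd36 had 0.16 ± 0.30 and Cpt1b -0.08 ± 0.28 in PBO, neither called. Amacr fell in PBO by 1.24 ± 0.27 (adjusted p = 0.000945), from 11.93, 12.44 and 12.20 to 10.92, 10.74 and 11.21. Other branched-chain genes fell as well, Phyh by 0.73 ± 0.15, Acox2 by 0.53 ± 0.13 and Scp2 by 0.39 ± 0.07. The fifth gene that fell was Etfb.

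CIDB, an azo dye, raised Ech1 by 1.33 ± 0.16 (adjusted p = 2.48e-08), from 10.11, 10.30 and 10.31 in control set 3 to 11.42, 11.37 and 11.93. Eci1 rose by 1.17 ± 0.16, Acsl3 by 1.16 ± 0.20 and Crot by 0.84 ± 0.26. Ehhadh had -0.13 ± 0.24 and Pex11a -0.23 ± 0.20, neither of them called here. Amacr fell by 0.84 ± 0.27, Bdh1 by 0.69 ± 0.12, Acox2 by 0.62 ± 0.13 and Hadh by 0.46 ± 0.08. Macrophage markers rose in CIDB (6 of 11 measured, mean level per array 9.35 to 9.60 against 8.73 to 9.19 in set 3), and 4 of 4 erythroid markers fell, and their part in these values was not tested.

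ETH, the ethyl analog of methionine, moved 14 genes, 10 of them down. Decr2 fell from 11.13, 11.32 and 10.88 to 10.25, 10.21 and 10.12, by 0.92 ± 0.11 (adjusted p = 3.37e-09). Etfb fell by 0.76 ± 0.07, Etfdh by 0.76 ± 0.12 and Echs1 by 0.68 ± 0.09. Of the 7 dehydrogenase and electron transfer genes 5 fell and 0 rose. Some of these 7 also differed between vehicle sets, among them set 5, the control of ETH. Acadvl changed by -0.32 in ETH, beside -0.41 ± 0.11 (set 2 minus 5) and 0.56 ± 0.11 (set 5 minus 6). Acads was called in 3 pairs of control sets and Etfb in 1 (0.24 ± 0.07, set 5 minus 6). Acadl, Acadm, Etfa and Etfdh were called in 0. Acsl3 rose by 1.19 ± 0.20, Crot by 0.72 ± 0.26, Plin2 by 0.68 ± 0.19 and Eci2 by 0.36 ± 0.11. Of the macrophage markers 10 of 11 rose in ETH (mean level 10.01 to 10.08 against 8.69 to 9.19), and their part was not tested.

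DES, a synthetic estrogen, lowered most Hacl1, Amacr and Phyh, which act on branched-chain acids in peroxisomes. Hacl1 went from 10.02, 10.44 and 10.08 to 8.85, 7.95 and 8.80 and fell by 1.64 ± 0.28 (adjusted p = 1.79e-05). Amacr went from 11.93, 12.44 and 12.20 to 10.60, 10.66 and 10.88 and fell by 1.48 ± 0.27 (adjusted p = 6.39e-05). Phyh went from 13.10, 13.46 and 12.98 to 12.01, 12.03 and 11.83 and fell by 1.22 ± 0.15 (adjusted p = 3.67e-08). In none of the 3 did the groups overlap. Bdh1 fell by 0.64 ± 0.12, and Ech1 (0.64 ± 0.16), Acsl4 (0.45 ± 0.15) and Cpt2 (0.44 ± 0.16) rose. Without replicate 9 of methylcellulose set 5 the count of called genes was 7 instead of 12.

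CPA, a steroidal antiandrogen, gave the largest fall of the set. Crot stood at 10.63, 10.46 and 10.66 in control set 4 and at 8.57, 7.55 and 8.52 in CPA, and fell by 2.37 ± 0.26 (adjusted p = 7.39e-09), which is 5.17-fold. A second Crot probe set fell by 2.06 ± 0.27. By the probe set used, Crot thus fell in CPA and rose in 5 other compounds, DHEA, Wy, AA, CIDB and ETH. The second probe set was called in the same direction in all of these. It also rose in PBO (1.17 ± 0.27, adjusted p = 0.00124) and DES (0.98 ± 0.27, adjusted p = 0.00696) and fell in Nif (-0.96 ± 0.27, adjusted p = 0.0156). The probe set used had 0.57, 0.52 and 0.32 there, none of them called. Angptl4 went from 10.76, 10.88 and 10.94 to 9.17, 9.98 and 8.53 and fell by 1.63 ± 0.40 (adjusted p = 0.00656). Bdh1 fell by 0.82 ± 0.12 and Acsl5 by 0.74 ± 0.18.

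Of the 9 genes that fell in CPA, Etfb was the one whose arrays overlapped the controls. Macrophage markers fell too (7 of 11, mean level 8.46 to 8.88 against 9.13 to 9.63), and their part was not tested. Without replicate 1 of CPA 4 genes were called and without replicate 2 5.

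TAA, a liver toxicant, lowered 9 genes, with changes from -0.64 to -0.31. The 4 with the largest fall among those with no overlap were Eci1, which fell by 0.64 ± 0.16, Ech1, by 0.54 ± 0.16, Bdh1, by 0.54 ± 0.12, and Decr2, by 0.49 ± 0.11. Eci1 lay at 10.30, 10.66 and 10.85 against 11.41, 11.07 and 11.26 in control set 1. These enzymes had risen in Wy and DHEA, against the same controls, apart from Bdh1. The count was 3 without replicate 1 of TAA, 5 without replicate 4 and 4 without replicate 6 of methylcellulose set 1.

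MPy, an antihistamine, lowered Hacl1, with a change of -1.04 ± 0.28 (adjusted p = 0.0142), from 10.23, 10.67 and 10.47 to 9.53, 9.25 and 9.47. Acox2 fell by 0.56 ± 0.13, Bdh1 by 0.47 ± 0.12 and Acsl1 by 0.38 ± 0.11, and Hadhb rose by 0.64 ± 0.10. The count of 8 became 3 without replicate 2 of MPy, 4 without replicate 4 and 5 without replicate 6 of methylcellulose set 1.

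Nif, a calcium channel blocker and non-carcinogen, moved a pair of genes by more than 0.7. Acox3 fell by 1.01 ± 0.11 (adjusted p = 8.79e-10), from 8.78, 8.79 and 8.58 to 7.74, 7.71 and 7.68. Acox3 also differed between vehicle sets, by 0.59 ± 0.11 between sets 2 and 5 (adjusted p = 0.00058). Abcd3 rose by 0.78 ± 0.13 (adjusted p = 5.35e-05), from 10.09, 10.14 and 10.22 to 10.86, 10.98 and 10.93. Neither gene overlapped its controls. Acadvl rose by 0.38 ± 0.11 and Etfb by 0.27 ± 0.07, while Hadhb fell by 0.33 ± 0.10 and Acadm by 0.26 ± 0.08. The count of 6 was 2 without replicate 2 of Nif and 3 without replicate 10 of methylcellulose set 2.

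AA raised Crot by 0.86 ± 0.26 (adjusted p = 0.0414), from 10.16, 10.04 and 10.19 to 11.16, 11.04 and 10.78, and lowered Abcd3, which fell by 0.50 ± 0.13 (adjusted p = 0.0208). No call was left without replicate 1 of AA or without replicate 4 or 6 of methylcellulose set 1. In Mcarb, PB, DMN and CFX limma called 0 genes, with 3, 9, 10 and 3 of the 43 at an unadjusted p under 0.05. The lowest of these were Bdh1 in Mcarb (-0.41 ± 0.12), Acadl in PB (-0.36 ± 0.11), Pex11a in DMN (-0.64 ± 0.20) and Ech1 in CFX (-0.41 ± 0.16). In PB, 3 genes were called without replicate 2 of methylcellulose set 6, and 0 without the array with high muscle markers.

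Across compounds a few genes fell repeatedly. Bdh1 fell in 6 (CPA, CIDB, DES, ETH, TAA and MPy) and rose in none by the probe set used. Its second probe set, of similar brightness (means 10.94 and 11.12), fell in CPA, CIDB, DES and ETH, was not called in TAA (-0.29 ± 0.12) or MPy (-0.22 ± 0.12), and rose in Wy by 0.55 ± 0.12 (adjusted p = 0.000534). Acox2 fell in 5 (PBO, CIDB, CPA, TAA and MPy), and Amacr in 4 (DHEA, PBO, CIDB and DES), again with no rise. Acadm fell in 5 (ETH, DES, CPA, TAA and Nif) and rose in Wy and DHEA. Several of these compounds share control arrays, so the counts are not independent.

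**Figure D5:**
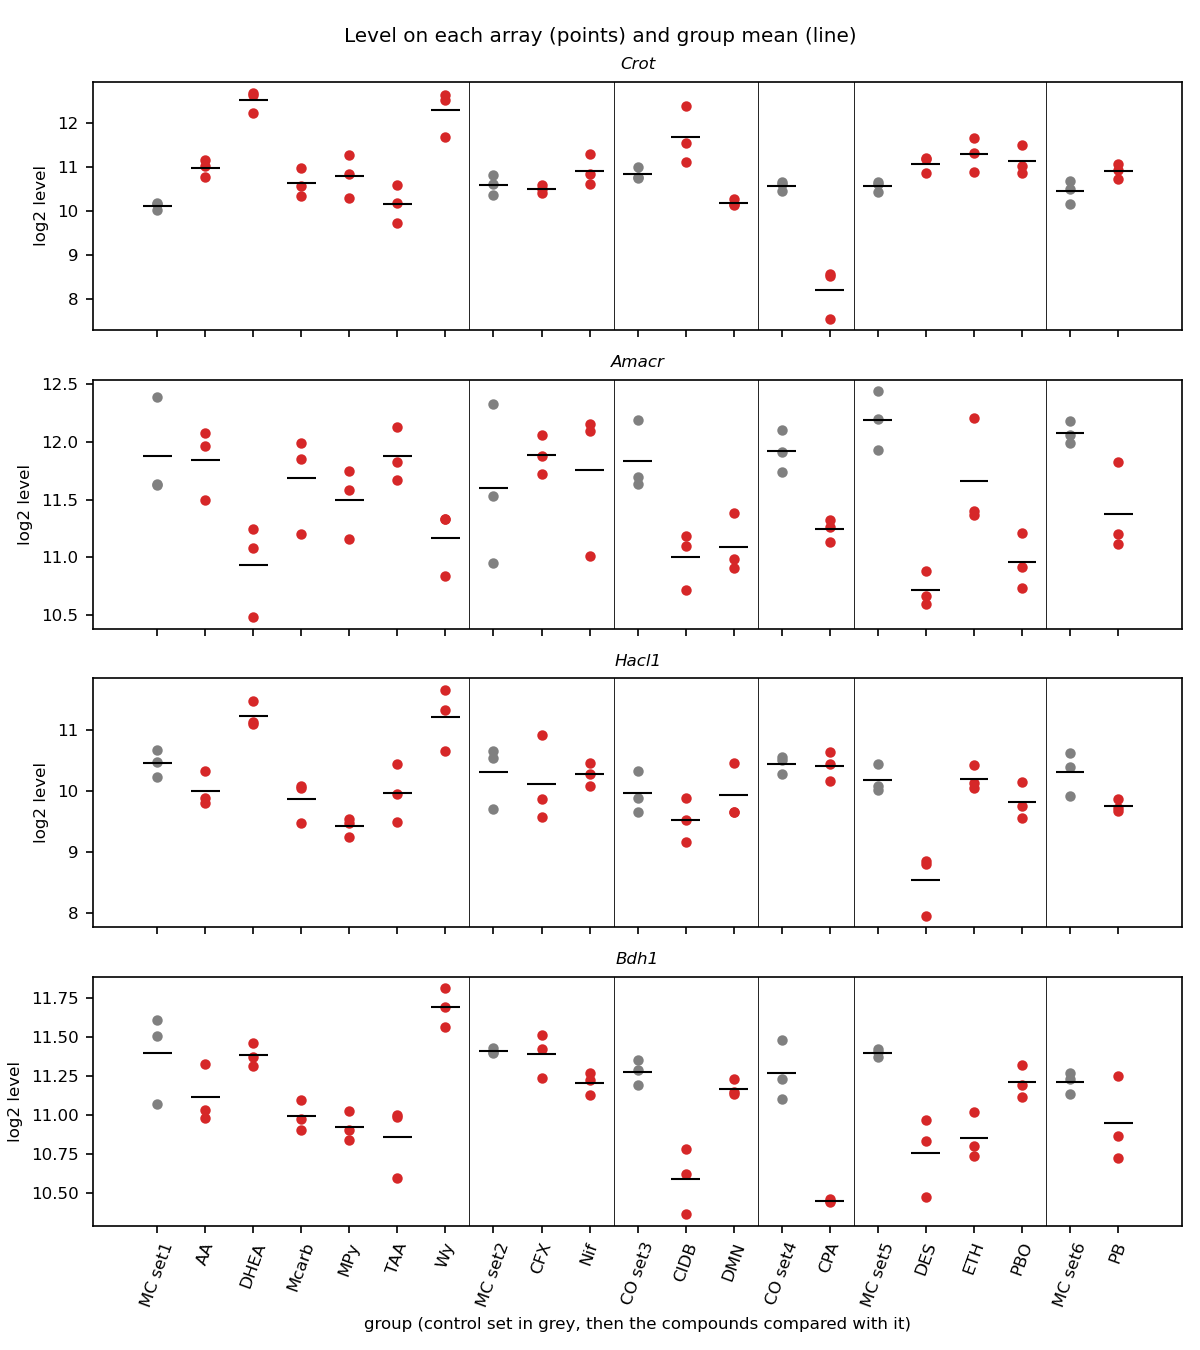
Log2 level on each array (points) and group mean (line) of Crot, Amacr, Hacl1 and Bdh1 in all groups (horizontal axis; MC is methylcellulose, CO corn oil), each control set in grey to the left of its compounds, with a vertical axis for each gene. The 3 CPA arrays of Crot (7.55 to 8.57) and the 3 DES arrays of Hacl1 (7.95 to 8.85) lie below all other arrays of these genes.

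Vehicle arrays were compared among themselves as well. Over 7 pairs of control sets with 1 vehicle, 17 gene calls were made, or 5.65% of the tests, against 3.74% over all probe sets in those pairs. With the compared arrays fitted alone 1 call was left. Of the 17 calls, 10 came from methylcellulose sets 5 and 6, where 9 genes were higher in set 5 and 1 was lower. These are 20.9% and 2.33% of the 43 genes, where 999 and 622 of all 15866 probe sets were called. In that pair the 43 genes were thus called higher in set 5 more often than probe sets in general. Cpt1a differed most, at 10.45, 11.15 and 10.58 in set 5 and 9.09, 9.41 and 9.62 in set 6, by 1.36 ± 0.33 (adjusted p = 0.00497), beside a change of 1.50 in Wy and 1.32 in DHEA. Over all 18 control arrays Cpt1a ran from 9.09 to 11.15 and Acaa2 from 11.52 to 12.83, while Scp2 ran from 13.60 to 13.87. Without replicate 2 of methylcellulose set 6 the 17 calls became 11, and without the array with high muscle markers 13.

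The study sorts 8 of the compounds as non-genotoxic carcinogens (AA, DES, DHEA, ETH, Mcarb, MPy, PB and PBO), CIDB and DMN as genotoxic carcinogens and CFX and Nif as non-carcinogens. With the compound as the unit, 0 of the 43 were called by limma for carcinogens against non-carcinogens (0.0126% of all probe sets were), 0 for non-genotoxic against genotoxic carcinogens (0.0819%) and 0 for non-genotoxic carcinogens against non-carcinogens (0.0189%). At an unadjusted p under 0.05 there were 2, 1 and 1 genes, or 4.65%, 2.33% and 2.33% of the 43 against 10.1%, 12.3% and 11.5% of all probe sets. Amacr had the lowest p for carcinogens and for non-genotoxic carcinogens against non-carcinogens, with a difference of -0.93 ± 0.31 (adjusted p = 0.414) and -0.91 ± 0.32 (adjusted p = 0.351). The mean change of Amacr was -0.69 over the 8 non-genotoxic carcinogens, -0.79 over the 2 genotoxic ones and 0.22 over the 2 non-carcinogens. Control set 2, used for both non-carcinogens, had lower Amacr than the other methylcellulose sets, though no pair was called. The differences were 0.28 ± 0.27 (set 1 minus 2), -0.59 ± 0.27 (set 2 minus 5) and -0.47 ± 0.27 (set 2 minus 6). Abcd3 (-0.50 ± 0.22) followed in the comparison of all carcinogens. Between non-genotoxic and genotoxic carcinogens Acaa2 had the lowest p, with 0.62 ± 0.27 (adjusted p = 0.388), followed by Etfb (-0.40 ± 0.20) and Acsl1 (0.38 ± 0.19). CPA, TAA and Wy, which the study lists as undefined and did not use to build its class signatures, were left out.

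Related genes outside the set were counted from 3 companion lists. Over all probe sets 9.3% rose and 8.37% fell in DHEA, and 6.5% rose and 6.45% fell in Wy. Of 24 measured genes of fatty acid oxidation and ketogenesis beside the 43, 14 rose in DHEA and 0 fell, and 11 rose and 1 fell in Wy. The acyl-CoA thioesterase Acot1 rose by 7.16 ± 0.24 in DHEA and 7.41 ± 0.24 in Wy, Acot2 by 3.93 ± 0.27 and 3.61 ± 0.27, and the carnitine acetyltransferase Crat by 3.33 ± 0.22 and 3.06 ± 0.22. The control means of Acot1 (4.79) and Acot2 (5.49) were dim and no detection call was at hand, so their changes may be bounds from below. Slc27a5, a bile acid CoA ligase, was the gene that fell in Wy (-1.38 ± 0.27).

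Of 11 measured genes of peroxisome biogenesis, 4 rose in DHEA and 3 in Wy, and 0 fell. Pex19, which brings membrane proteins to peroxisomes, rose by 1.02 ± 0.13 and 1.10 ± 0.13, Pex6, an ATPase of matrix protein import, by 0.53 ± 0.10 and 0.53 ± 0.10, and the peroxisomal protease Lonp2 by 0.37 ± 0.09 and 0.50 ± 0.09. Among 18 measured regulators 5 rose in each and 0 fell. The hormone gene Fgf21 rose in DHEA by 1.86 ± 0.32 and had 0.14 ± 0.32 in Wy. Acacb, which makes the malonyl-CoA that restrains Cpt1, rose by 1.07 ± 0.16 and 0.90 ± 0.16, and the receptor partner Rxrg by 0.65 ± 0.15 and 0.67 ± 0.15.

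A second probe set was present for 9 of the 43 genes. Over the 15 compounds this gave 135 pairs of changes. In 23 both probe sets were called in the same direction, in 85 neither was, in 14 the one used alone and in 13 the other alone. In 0 pairs were both called in opposite directions.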

How the data were processed

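Liver RNA was measured on 63 Affymetrix RAE230A arrays. The authors deposited normalised log2 values, made by robust multi-array averaging (affy package, version not given in the sources used here). Medians of arrays ran from 7.42 to 7.51, so a shift shared by all genes cannot be seen. Precision is limited by 3 arrays per group.

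By the platform annotation 12783 probe sets carry 1 gene symbol, 312 several and 2771 none. A gene was taken at its brightest probe set of that symbol alone. In limma 3.58.1 (R 4.3.3; data.table, version 1.17.8) all arrays and 15866 probe sets entered 1 linear model with a mean per group, 42 residual degrees of freedom and Benjamini-Hochberg adjustment over all probe sets within each comparison. An adjusted p under 0.05 made a call. Class comparisons used compounds as units, though several share control arrays. Exact tests of single genes were not run, since 0.1 is their lowest p with 3 arrays per group.

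The 44 genes, the companion lists and the marker lists (hepatocyte, macrophage, stellate and matrix, adipocyte, muscle and heart, endothelium, biliary, erythroid, lymphocyte) were chosen with earlier results of these data known. Shown in full are the genes with the 5 largest changes in Wy or DHEA. For other compounds up to 4 of the highest and 4 of the lowest called genes without overlap are named, for class comparisons the 3 lowest p-values, and for companion lists up to 3 called genes. Other values were chosen after they were seen.

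DHEA and Wy arrays of the same number deviated together (correlations 0.15, 0.13 and 0.15), so their comparison was repeated with a replicate block. Tested on simulated data for DHEA against control set 1 over 15866 probe sets, the fit called 84% of true log2 changes of 0.5, 96% of 1, 100% of 2 and 98% of -1, and 4.55% of its calls were unchanged probe sets. The simulated noise was independent between arrays. It held no offset between sets of animals, such as the vehicle sets show, so the 4.55% leaves that out. Alternatives were the compared arrays alone, pooled controls, array weights, a filter at a mean of 6, the mean of a gene's probe sets, median centring and leaving out single arrays. Python 3.11.15, pandas 2.3.3, numpy 2.4.6 and matplotlib 3.10.9 were used for promoters and figures.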

Additional observations from a re-analysis of the deposited data

Results flagged for a closer look

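Among the 8 non-genotoxic carcinogens DHEA lay apart by its median change of the 43 genes, 0.73, with PBO next at 0.11. The gap was 0.69 of the whole range. The rule used sets about 1 in 20 groups apart by chance alone, and this rate is not the chance of a gap of 0.69. The gene list was drawn up with earlier results of these data known, so the gap is described only.

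Compared directly, DHEA and Wy differed in 4 genes. Of the 43, 2.33% were higher in DHEA and 6.98% in Wy, against 4.2% and 3.57% of all probe sets. A limma fit on the 6 arrays alone and a fit with the replicate block each called 0 (11 and 14 at an unadjusted p under 0.05). Of all 15866 probe sets these fits called 501 and 462. Acox2 was higher in DHEA by 0.41. Acadm (-0.35), Acads (-0.32) and Ucp2 (-0.52, each DHEA minus Wy) were lower.

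Probe sets not used for the gene values carried calls that the used ones did not. In Nif the second probe set of Cpt1a changed by -0.97 and that of Crot by -0.96, while the used ones had 0.28 and 0.32. In Mcarb the second probe set of Plin2 changed by 0.75 and the used one by -0.01. Probe sets with several symbols moved as well. The probe set of Acaa1b and Acaa1a, peroxisomal thiolases whose RNAs it does not tell apart, changed by 2.08 in DHEA, 2.19 in Wy and 1.10 in PBO. The probe set of Cd36l1 and Cd36 changed by 2.84 in DHEA, 2.86 in Wy and 0.90 in DES. That of Eci3 and Eci2 changed by 0.34 in DHEA, -0.65 in CIDB and -0.42 in DES, and was not called in Wy (0.28).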

How the results depend on the processing

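The changes of Cd36, Ech1, Cpt1b, Ehhadh, Pex11a and Eci1 in Wy and DHEA kept their direction and their call in all 108 recomputed values, though with the mean of its probe sets Eci1 changed by 1.31 in DHEA and 1.43 in Wy instead of 2.74 and 2.85. Of the recomputed counts of called genes, 199 stayed within 1.5 times the count reported and 39 did not. Calls over all probe sets were not counted beside them, apart from Wy without its replicate 1 and DHEA against Wy on their arrays alone. Without replicate 1 of Wy, Cpt1b turned from 0.34 to -0.51 (DHEA minus Wy), and Crot (0.23 to -0.07) and Cpt2 (0.16 to -0.05) were among the uncalled genes that changed sign. The count of called genes in DHEA stayed between 29 and 31 and in Wy between 30 and 32 when single arrays were left out. The compared arrays alone gave 1 gene in AA, 2 in DMN, 3 in Nif, 0 between DHEA and Wy and 1 between control sets. Controls pooled by vehicle gave 1 in DMN, 2 in Mcarb, 13 in MPy, 6 in PB and 15 in TAA. Array weights gave 22 in CIDB, 12 in DMN, 1 in Mcarb and 13 in MPy, and median centring gave 1 in AA. The cause was not tested in any of these. Leaving out single arrays gave 0 to 2 called genes in AA, 4 to 8 in CPA, 7 to 11 in DES, 0 to 1 in Mcarb, 3 to 8 in MPy, 2 to 6 in Nif, 0 to 3 in PB, 3 to 10 in TAA, 1 to 6 between DHEA and Wy and 11 to 18 between control sets. The replicate block left 0 genes between DHEA and Wy, whose arrays of the same number had correlations of 0.13 to 0.15. It left 8 in CPA and 0 in PB, compared with their controls (correlations -0.15 to 0.17 and -0.15 to -0.05). In all of these the labels give a replicate number only, and no pairing of animals. Dim signals may hide changes, which was not tested. The second probe set of Eci1 had a mean of 6.59 and was not called in Wy or DHEA. That of Pex11a had a mean of 6.11 and rose in both.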
